A study of Mus musculus with 15 samples.

Results

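The 4 Zic genes measured here, Zic1, Zic2, Zic4 and Zic5, were taken by their gene symbols from UMI (unique molecular identifier) tables of 27803 genes that came from Drop-seq of 15 mice. Drop-seq captures single cells with barcoded beads and counts each captured transcript once, at its 3′ end. The 5 WT samples were untreated P7 cerebella of C57BL/6 mice. The 10 tumors were medulloblastomas of M-Smo mice, genotype Math1-Cre:SmoM2/EYFPloxP/loxP on the C57BL/6 strain, in which a cloned Atoh1 (Math1) promoter drives Cre in granule neuron progenitors and Cre switches on SmoM2, a constantly active form of the SHH signal transducer SMO, with an EYFP tag. 5 tumor mice received vehicle and 5 received 75 mg per kg vismodegib, a SMO inhibitor, as 3 daily doses from P12, and all tumors were collected at P15. The Drop-seq device was made of PDMS for WT cerebella and of glass for the tumors. Cultured human cells were mixed into the tumor runs, whose barcodes were then selected for mouse transcripts, but not into the WT runs. Age, genotype, device and this spike-in therefore cannot be told apart wherever vehicle tumors are set against WT cerebella. SmoM2 is a mutant SMO, and all tumors carried it, whatever the treatment.

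The ZIC proteins are zinc finger transcription factors whose DNA-binding domain is related to that of the GLI proteins, the effectors of SHH signaling, and of the GLIS proteins. Zic1 is a classical marker of cerebellar granule neuron progenitors (CGNPs) and of the granule neurons they become, and losing Zic1 and Zic4 together impairs growth of the cerebellum. Zic2 is best known for its part in forebrain midline formation and axon crossing, and Zic5 for its part in neural tube and neural crest development.

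The genes lie in the genome as head-to-head pairs. On GRCm38 with the GENCODE M21 annotation, Zic1 spans chr9:91358058-91365810 on the minus strand and Zic4 chr9:91362413-91389348 on the plus strand. Their annotated bodies overlap by 3398 bp on opposite strands, the 3′ ends where Drop-seq reads start lie outside that overlap, and Gm37477 overlaps Zic4 by a further 884 bp on the opposite strand. Whether the counting used strand was not stated in the labels or methods, so Zic1 and Zic4 reads inside the overlap are uncertain. Zic5 spans chr14:122456795-122465677 on the minus strand and Zic2 chr14:122475435-122479852 on the plus strand, 9757 bp apart, with no overlapping gene.

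Promoters are shown for the 3 genes that have an entry among the RefSeq promoter sequences (GRCm38.p6), because Zic1 and Zic4 had the most similar patterns of any pair of members and Zic5 differed most between tumors and WT cerebella. Each runs 5′ to 3′ on the gene's strand, from 250 bases before to 50 bases after the gene's start in RefSeq, and capitals mark E-boxes (CANNTG), the motif bound by basic helix-loop-helix factors such as ATOH1 and NEUROD1. The Zic1 promoter is chr9:91365719-91366018 (minus strand), the Zic4 promoter chr9:91368722-91369021 (plus strand) and the Zic5 promoter chr14:122465609-122465908 (minus strand). The RefSeq start of Zic4 used here lies 6559 bp inside the GENCODE span of the gene, so its sequence is not the one before the first base of that span.
Zic1: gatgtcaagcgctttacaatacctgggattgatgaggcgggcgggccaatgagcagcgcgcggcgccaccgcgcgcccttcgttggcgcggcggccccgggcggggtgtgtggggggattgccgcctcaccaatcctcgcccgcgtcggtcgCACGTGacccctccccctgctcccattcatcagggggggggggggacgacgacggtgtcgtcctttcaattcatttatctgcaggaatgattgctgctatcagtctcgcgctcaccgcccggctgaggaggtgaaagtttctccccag
Zic4: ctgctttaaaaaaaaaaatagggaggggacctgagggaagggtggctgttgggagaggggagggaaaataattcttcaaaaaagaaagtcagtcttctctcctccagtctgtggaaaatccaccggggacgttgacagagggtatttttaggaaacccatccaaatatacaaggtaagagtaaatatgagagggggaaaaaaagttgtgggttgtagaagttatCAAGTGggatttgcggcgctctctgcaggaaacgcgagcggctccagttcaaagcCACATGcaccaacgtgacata
Zic5: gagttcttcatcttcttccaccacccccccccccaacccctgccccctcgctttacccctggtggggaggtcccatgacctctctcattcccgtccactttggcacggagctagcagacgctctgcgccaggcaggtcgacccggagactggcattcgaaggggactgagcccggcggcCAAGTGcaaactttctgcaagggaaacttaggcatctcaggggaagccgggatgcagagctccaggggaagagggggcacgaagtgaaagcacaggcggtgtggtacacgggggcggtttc
The Zic1 and Zic5 promoters each held 1 E-box and the Zic4 promoter 2, and 72.3% of all 32851 promoters of this length hold at least 1. The Zic1 E-box has the letters CACGTG, which 7.15% of promoters hold and which is itself an E-box. None of the 3 held CAGCTG, found in 16.3% of promoters, or the GLI core CCACCCA, found in 9.3%, on either strand. The starts of Zic1 and Zic4 in these sequences lie 3204 bp apart, and the Zic1 promoter is richer in G and C (65.3%) than that of Zic4 (46.0%).

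After filtering, 7224 WT, 18293 vehicle and 12429 vismodegib cells remained, with 805 to 8103 cells per animal and a median of 1082.5 to 2597 UMIs per cell. Of 105 pairs of libraries, 31 shared a cell barcode and no pair shared more than 6. Cells were clustered without the Zic genes, separately for WT cerebella and tumors, and named from fixed marker genes. The granule lineage (CGNP-like cells) held 4 stages, Node A-like (mitotic genes such as Top2a and Mki67), Node B-like (Atoh1, Gli1 and DNA replication genes), Node C-like (Cntn2, Nhlh1, Stmn2) and Node D-like (the neuronal genes Grin2b, Snap25 and Calb2). No cluster was named for unipolar brush cells, which the paper calls molecularly similar to granule neurons, so such cells may be among these stages. Eomes, by which the paper tells them apart, was among the leading genes of a WT Node D-like and a tumor Node C-like cluster. CGNP-like cells made up 70.0% ± 2.5 of WT, 91.8% ± 2.0 of vehicle and 86.5% ± 2.8 of vismodegib cells (mean ± SD, n = 5 animals each, as throughout unless stated). A tumor cluster of 1154 cells, 587 vehicle and 567 vismodegib, got no name from the fixed markers and stayed outside this class. It held granule lineage RNA, with Cntn2 at 1016 and Pax6 at 897 CPM with pooled UMIs. A Node C-like tumor cluster of 2169 cells had Cntn2 at 1075 and Pax6 at 691 CPM. Zic1 in the unnamed cluster was 2379 ± 163 CPM in vehicle and 2334 ± 323 CPM in vismodegib samples. Levels are CPM, the UMIs of the gene per 1000000 UMIs of all genes in the summed cells of a class in an animal. They are not scaled to transcript length, since each transcript is counted at its end, and the share of transcripts captured may differ between genes.

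Zic1 was the most abundant of the 4 genes in the granule lineage of every group, and its level rose from the dividing to the neuronal stages. In Node A-like cells the WT levels were 721, 690, 731, 840 and 952 CPM in animals 1 to 5, the vehicle levels 944, 955, 1165, 1028 and 930 CPM, and the vismodegib levels 1138, 1152, 1050, 987 and 899 CPM. At the Node D-like stage the WT levels were 1904, 1786, 1839, 1934 and 2200 CPM, the vehicle levels 3096, 2426, 3239, 2679 and 2330 CPM, and the vismodegib levels 2859, 2860, 2609, 2493 and 2461 CPM. In all 15 animals Zic1 was higher in Node D-like than in Node A-like cells, with ratios from 2.30 to 3.28 and a median of 2.52, so the stages did not overlap within any group. By class means, Node B-like cells, named by markers such as Atoh1 and Gli1, did not exceed Node A-like cells. The group means were 706 (WT), 964 (vehicle) and 903 (vismodegib) CPM against 787, 1004 and 1045 CPM. Single clusters differed, with pooled Zic1 from 843 to 1293 CPM in the tumor Node B-like clusters against 934 and 1064 CPM in the Node A-like ones. Node C-like cells stood between the Node A-like and Node D-like stages, at 1441 ± 160, 2084 ± 108 and 2050 ± 198 CPM. The stages come from clustering of the same cells, so these levels are a description and carry no test. Depth per cell also differed between the stages. The median ratio of a cell's UMIs to its animal's median was 2.31 in WT Node A-like and 0.85 in WT Node D-like cells. Per cell, WT Zic1 was lower at the Node D-like stage (2504 UMIs in 988 cells) than at the Node A-like stage (2686 in 875). In vehicle (3453 in 832 against 10988 in 3359) and vismodegib tumors (20930 in 4295 against 5445 in 1289) it was higher.

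**Figure D1:**
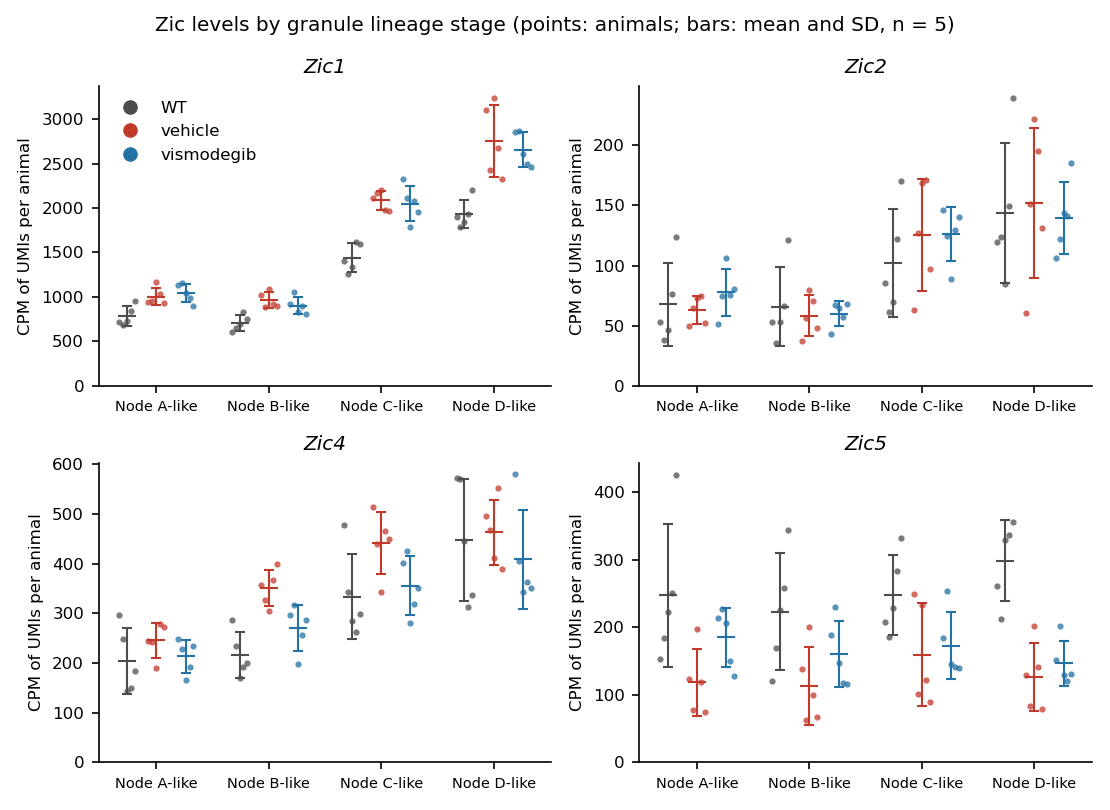
Zic levels in CPM of UMIs (y axis) by granule lineage stage (x axis), 1 panel per gene, with points for animals and bars for the mean and SD of 5 animals per group. Zic1, Zic2 and Zic4 are higher in Node D-like than in Node A-like cells in all 15 animals, while Zic5 is higher there in 10 of 15, of which 1 is a vismodegib tumor, and is lower in vehicle tumors than in WT cerebella.

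Zic4, the neighbor of Zic1, also had its highest mean among the 4 stages in Node D-like cells of each group, at lower levels than Zic1. In the unnamed tumor cluster it was 429 ± 40 CPM in vehicle and 414 ± 114 CPM in vismodegib samples. Its group means went from 205 to 447 CPM in WT, from 246 to 463 CPM in vehicle and from 213 to 409 CPM in vismodegib samples between Node A-like and Node D-like cells. The ratio was above 1 in 15 of 15 animals, with a median of 1.98 and a range of 1.44 to 3.13. Counted per cell instead, Zic4 was lower at the Node D-like than at the Node A-like stage in each group. Pooled, it had 596 UMIs in 988 against 809 in 875 WT cells. In vehicle tumors it had 592 in 832 against 2887 in 3359, and in vismodegib tumors 3047 in 4295 against 1145 in 1289. Unlike Zic1, Zic4 had a higher mean in Node B-like than in Node A-like cells of each group, at 217 ± 46 against 205 ± 66 CPM in WT, 351 ± 37 against 246 ± 35 CPM in vehicle and 271 ± 46 against 213 ± 34 CPM in vismodegib samples. Of these, the mean ± SD ranges did not meet in vehicle tumors, and the ratio of Zic1 to Zic4 UMIs in vehicle tumors accordingly ran from 2.79 ± 0.50 in Node B-like to 6.03 ± 1.17 in Node D-like cells.

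Zic2 had the lowest mean of the 4 members in CGNP-like cells of each group, at 86.3, 74.7 and 101 CPM in WT, vehicle and vismodegib samples. Node A-like means were 67.8, 62.8 and 77.8 CPM and Node D-like means 144, 152 and 140 CPM in WT, vehicle and vismodegib samples. The level was higher in Node D-like cells in 15 of 15 animals, but the ratio ranged from 1.23 to 3.23. Precision is low at this level, since Node D-like cells of an animal held as few as 8 Zic2 UMIs. Counted per cell instead, pooled Zic2 was lower at the Node D-like stage in WT cerebella (185 UMIs in 988 cells against 227 in 875). So it was in vismodegib tumors (1297 in 4295 against 425 in 1289). In vehicle tumors it was higher (208 in 832 against 673 in 3359).

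Zic5 had no such rise common to the groups. Node A-like and Node D-like means were 247 ± 106 and 299 ± 60 CPM in WT, 118 ± 50 and 127 ± 50 CPM in vehicle, and 185 ± 43 and 147 ± 33 CPM in vismodegib samples. The ratio of Node D-like to Node A-like cells had a median of 1.05 and lay above 1 in 4 of 5 WT, 5 of 5 vehicle and 1 of 5 vismodegib animals. Its share of the UMIs of the 4 genes therefore fell along the lineage, from 18.4% ± 4.7 in Node A-like to 10.6% ± 2.0 in Node D-like cells of WT cerebella and from 8.10% ± 2.7 to 3.54% ± 0.97 in vehicle tumors. Zic1 took 60.5% ± 3.3 and 68.4% ± 2.0 of these UMIs in the same WT stages, and 70.2% ± 1.3 and 78.7% ± 2.5 in the vehicle stages.

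The Node D-like cells of tumors fell into 3 clusters, and the Zic genes were not even among them. The cluster led by Gabra6 and Cbln3, which mark late granule neurons, held 333 cells with a Zic1 level of 1880 ± 452 CPM over the 10 tumors. The other Node D-like clusters, led by Calb2 and Tenm1 in 2525 cells and by Car3 and Sez6 in 2269 cells, stood at 2742 ± 440 and 2763 ± 291 CPM. Zic1 was lowest in the Gabra6 and Cbln3 cluster in 10 of 10 tumors. Zic4 was likewise lower there on average, at 292 ± 166 against 459 ± 92 and 431 ± 122 CPM, while Zic5 was not, at 143 ± 62 against 136 ± 81 and 127 ± 39 CPM.

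Outside the granule lineage the cell classes fell into a set with high and a set with low Zic1. Among the 12 named classes of WT cerebella, Zic1 was ordered from Node D-like cells (1933 ± 160 CPM) through Node C-like (1441 ± 160), GABAergic interneuron-like (1138 ± 193), Node A-like (787 ± 108), GABAergic progenitor-like (755 ± 98), Node B-like (706 ± 88), vascular fibroblast-like (618 ± 110) and astrocyte-like cells (556 ± 178) to endothelial-like (213 ± 25), oligodendrocyte-like (180 ± 92), microglia-like (116 ± 83) and Purkinje-like cells (76.6 ± 56.6). Neighbors in this order whose mean ± SD ranges did not meet were Node D-like and Node C-like, GABAergic interneuron-like and Node A-like, and astrocyte-like and endothelial-like cells, and all other neighbors overlapped. In the 10 tumors, which held no GABAergic or Purkinje-like class, the order was Node D-like (2705 ± 302 CPM), Node C-like (2067 ± 151), Node A-like (1025 ± 98), vascular fibroblast-like (956 ± 187), Node B-like (933 ± 94), astrocyte-like (646 ± 189), microglia-like (197 ± 79), endothelial-like (186 ± 79) and oligodendrocyte-like (159 ± 47). Node A-like, vascular fibroblast-like and Node B-like cells overlapped there, as did the last 3 classes.

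**Figure D2:**
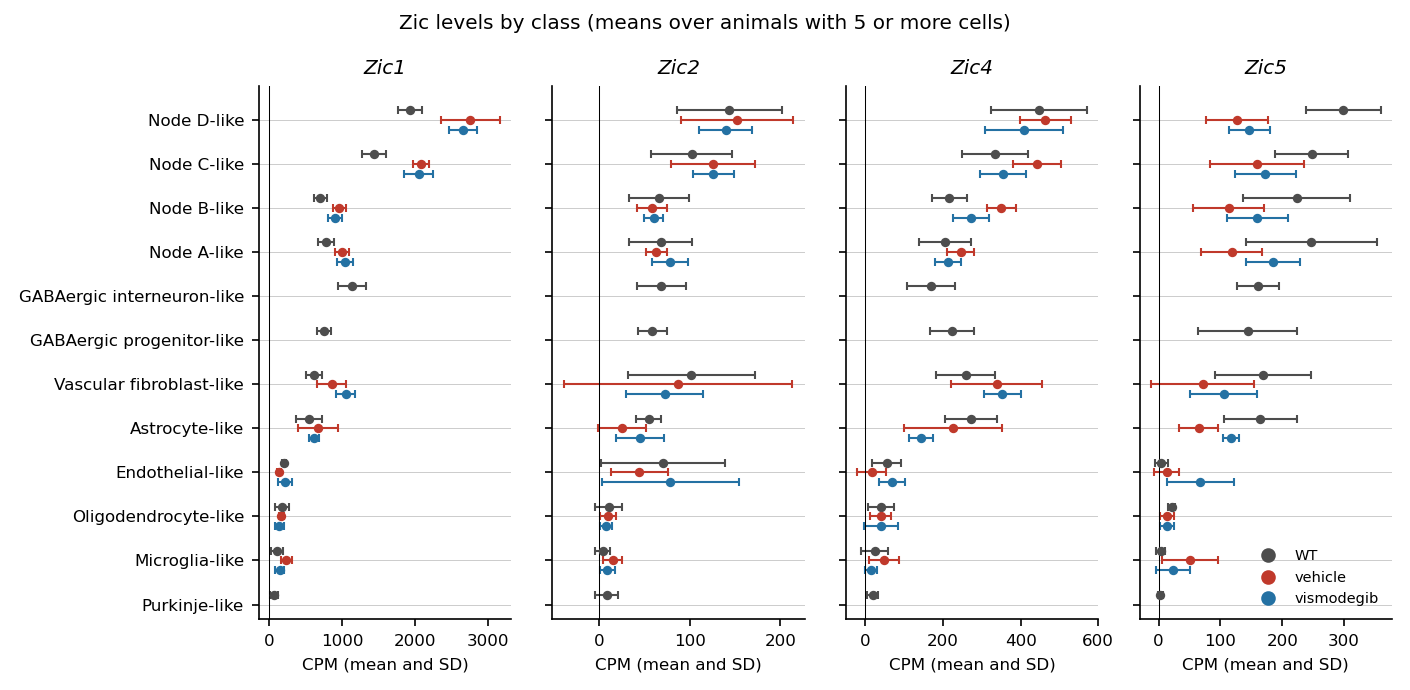
Zic levels in CPM (x axis, mean and SD over animals with at least 5 cells of the class) for each named class (y axis), 1 panel per gene and colors for the groups. All 4 genes are low in oligodendrocyte-, microglia- and Purkinje-like cells, and the tumor groups have no GABAergic or Purkinje-like class.

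For the other members the order was less sharp. Zic4 separated a high set of classes from a low set both in WT cerebella, between GABAergic interneuron-like (168 ± 62 CPM) and endothelial-like cells (54.6 ± 38.2 CPM), and in tumors, between astrocyte-like (184 ± 97 CPM) and endothelial-like cells (42.3 ± 42.9 CPM). Zic5 did so in WT cerebella between GABAergic progenitor-like (144 ± 79 CPM) and oligodendrocyte-like cells (21.0 ± 5.4 CPM), while in tumors all neighbors overlapped. Zic2 separated astrocyte-like (54.6 ± 14.0 CPM) from oligodendrocyte-like cells (10.3 ± 14.8 CPM) in WT cerebella, and its endothelial-like mean of 70.1 ± 68.6 CPM lay in the high set.

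In droplet data, RNA free in the suspension adds UMIs of abundant cell types to every droplet, so each Zic level outside the lineage was set beside that of 8 granule lineage genes (Atoh1, Barhl1, Neurod1, Pax6, Cntn2, Nhlh1, Insm1 and Gli1), as the level in the class over that in CGNP-like cells of the same group. For these ratios the UMIs of all animals of a group were pooled, and where ratios of the means over animals, an alternative added after seeing the data, gave another order, this is said. The 8 genes were chosen because they should be low in blood vessel and immune cells. Whether other classes express some of them was not tested. In microglia-like cells the Zic1 ratio was 0.130 in WT, 0.166 in vehicle and 0.096 in vismodegib samples, against a median of 0.082, 0.197 and 0.096 for the 8 genes, so it stood within the range of these genes in both tumor groups. In WT cerebella it stood just above the highest of them (0.127), from 28 UMIs, but not by means over animals (0.108 against 0.151). Oligodendrocyte-like cells were alike, with Zic1 ratios of 0.159, 0.150 and 0.087 against ranges that reached 0.269, 0.179 and 0.112, and so were Purkinje-like cells of WT cerebella, at 0.082 against a range that reached 0.170.

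Vascular fibroblast-like cells, led by the collagen genes Col3a1 and Col1a2, by Dcn and by Apod, differed from these. The class held 180 WT, 127 vehicle and 163 vismodegib cells, and a sub-cluster of 45 of the tumor cells was led by Rgs5 and Mgp, genes of the mural cells of vessels. Another sub-cluster of 31 tumor cells had the highest Zic1 of the class (1418 CPM with pooled UMIs) and also granule lineage RNA, with Cntn2 at 435 and Pax6 at 348 CPM against at most 35.9 and 56.7 CPM in the other tumor sub-clusters. All 4 Zic genes exceeded all 8 reference genes there in each of the 3 groups, with pooled UMIs and by means over animals. In tumors they also did so without those 31 cells, an alternative added after seeing the data, with Zic1 ratios of 0.529 in vehicle and 0.558 in vismodegib tumors and a highest reference of 0.118 and 0.080. In vehicle tumors Zic2 and Zic5 of this class rested on 18 and 20 UMIs, with the lowest animal at 0 CPM for each. Without the 31 cells they rested on 13 and 11 UMIs. The Zic1 ratio was 0.570, 0.623 and 0.585 in WT, vehicle and vismodegib samples, where the highest reference stood at 0.551, 0.250 and 0.201, and the Zic4 ratio was 0.838, 1.05 and 1.06. Zic1 in these cells was 573, 658, 454, 658 and 745 CPM in WT, 1065, 829, 1064, 724 and 629 CPM in vehicle and 1012, 1246, 1095, 1011 and 887 CPM in vismodegib animals, each from 24 to 170 UMIs.

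Astrocyte-like cells of WT cerebella also exceeded all 8 references for all 4 genes, with ratios of 0.498 (Zic1), 0.586 (Zic2), 0.961 (Zic4) and 0.691 (Zic5) against a highest reference of 0.478. In tumors the Zic1 ratio of 0.507 in vehicle and 0.387 in vismodegib samples lay under the highest reference of 0.529 and 0.461. With pooled UMIs, all 8 references were exceeded by Zic4 (0.588) and Zic5 (0.607) but not Zic2 (0.412) in vehicle tumors, and by Zic2 (0.519) and Zic5 (0.730) but not Zic4 (0.456) in vismodegib tumors. By means over animals, where the highest references were 0.722 and 0.547, only Zic5 of vismodegib tumors (0.701) exceeded all 8, and Zic1, Zic2 and Zic4 did so in neither tumor group. GABAergic interneuron-like cells of WT cerebella, which are inhibitory neurons from outside the Atoh1 lineage, had Zic1 as high as CGNP-like cells (ratio 1.05), Zic2 at 0.880, Zic4 at 0.660 and Zic5 at 0.697, where the highest reference was 0.533. In GABAergic progenitor-like cells all 4 genes, at 0.587 to 0.870, lay within the range of the references, which reached 0.929. In astrocyte-like and GABAergic classes that range may hold expression by the cells themselves. A Zic ratio within it therefore does not tell free RNA from expression there.

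**Figure D3:**
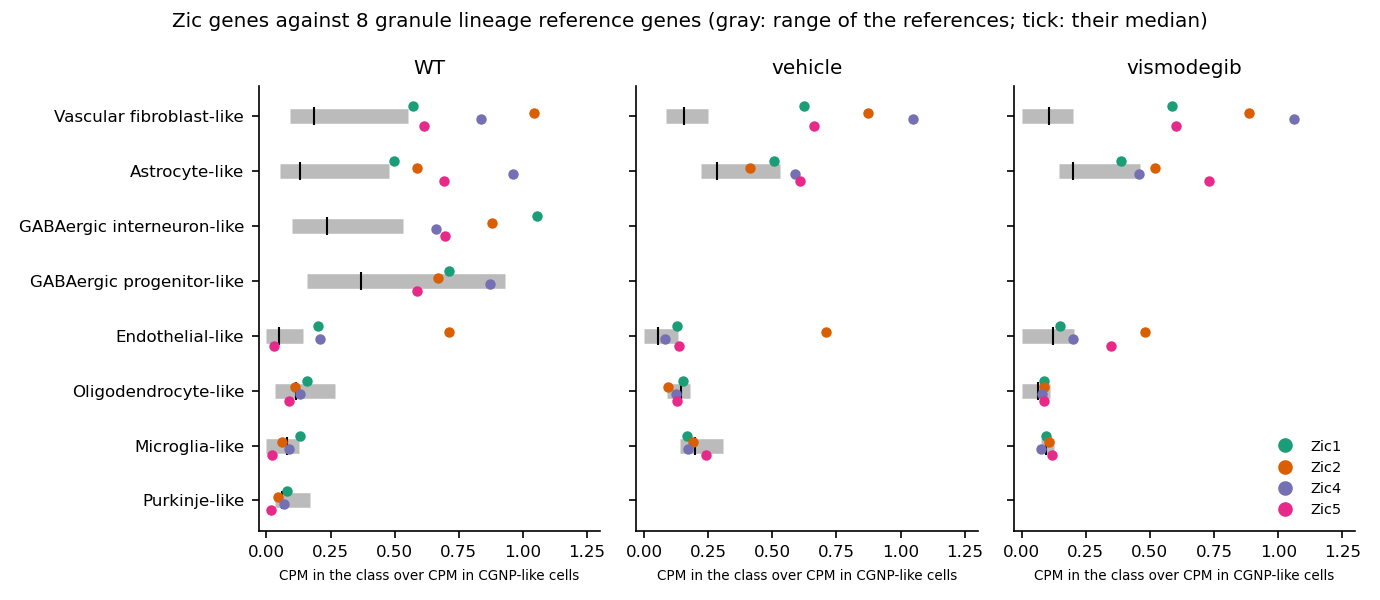
Ratio of the level in a class to that in CGNP-like cells (x axis) for 8 classes outside the granule lineage (y axis), 1 panel per group, with colored points for the Zic genes, a gray bar for the range of 8 granule lineage genes and a tick for their median. In vascular fibroblast-like cells all Zic genes lie right of the gray bar, while in oligodendrocyte-like cells they lie on or beside it.

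Vismodegib treatment addressed how SMO inhibition changes tumor cells. In CGNP-like cells Zic1 was 1216, 1174, 1423, 1267 and 1063 CPM in vehicle and 1579, 1626, 1435, 1765 and 1713 CPM in vismodegib tumors. Every vismodegib tumor lay above every vehicle tumor. Zic1 rose by 0.41 on the log2 scale (SE 0.13), with an adjusted p of 0.0493 in edgeR's quasi-likelihood test, and it was the only member called. Of all 12433 genes tested, 13.1% were called, and for 10.6% the ranges of the groups did not overlap, as for 1 of the 4 members here. The call lay at the threshold: it was kept in 2 of 10 fits that each left out a tumor, those without vehicle tumor 3 or vismodegib tumor 3, with fold changes of 0.36 to 0.46 and adjusted p from 0.0274 to 0.136. It was also lost with RLE size factors (adjusted p = 0.0635), without a filter on low counts (0.226), with cells thinned to 500 UMIs (0.0795) and with the replicate number as a block, where the log2 difference was 0.41, while DESeq2 kept it (0.0103).

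Zic2 was 43.8, 73.8, 100.4, 98.6 and 56.9 CPM in vehicle and 77.6, 90.5, 96.9, 108 and 132 CPM in vismodegib tumors, with overlapping ranges and a difference of 0.44 (SE 0.24, adjusted p = 0.265) that was 0.07 with equal weight of the stages (exact permutation test, adjusted p = 0.794). Zic4 was 361, 323, 282, 370 and 358 CPM in vehicle and 353, 336, 235, 294 and 312 CPM in vismodegib tumors, a difference of -0.15 (SE 0.13, adjusted p = 0.545). Zic5 was 150, 74.7, 205, 113 and 72.2 CPM in vehicle and 188, 229, 160, 130 and 128 CPM in vismodegib tumors. Its difference of 0.45 (SE 0.27, adjusted p = 0.326) was as large as that of Zic1 but the ranges overlapped widely, and over all settings it ran from 0.30 to 0.71. Outside the lineage, which got no test, mean Zic5 went from 65 to 117 CPM in astrocyte-like and from 71 to 105 CPM in vascular fibroblast-like cells. It went from 13 to 67 CPM in endothelial-like, from 51 to 23 CPM in microglia-like and from 13.7 to 13.3 CPM in oligodendrocyte-like cells.

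The makeup of the lineage also differed between the treatments, and its part in the Zic1 difference was not tested. Node D-like cells, where Zic1 was highest, were 4.32%, 4.18%, 8.99%, 11.04% and 3.45% of CGNP-like cells in vehicle and 20.5%, 23.7%, 27.2%, 49.9% and 55.6% in vismodegib tumors. Node B-like cells, where it was low, were 55.2% ± 8.4 and 29.3% ± 10.8. Among the vismodegib tumors Zic1 was highest in tumors 4 and 5, whose Node D-like shares were the largest. It was lowest in tumor 3, whose share was the middle of the 5. Within a stage Zic1 was not called: edgeR's log2 fold changes from the Node A-like to the Node D-like stage were 0.05, -0.08, -0.03 and -0.03, each with an SE of 0.12 to 0.14 and an adjusted p of 0.813 or more. Weighting the 4 stages of a tumor equally, an alternative chosen after seeing the data, gave 1702 ± 156 CPM in vehicle and 1664 ± 131 CPM in vismodegib tumors, a log2 difference of -0.03 (exact permutation test, 2-sided p = 0.683). The Zic1 rise of the summed lineage was not seen with equal stage weights.

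**Figure D4:**
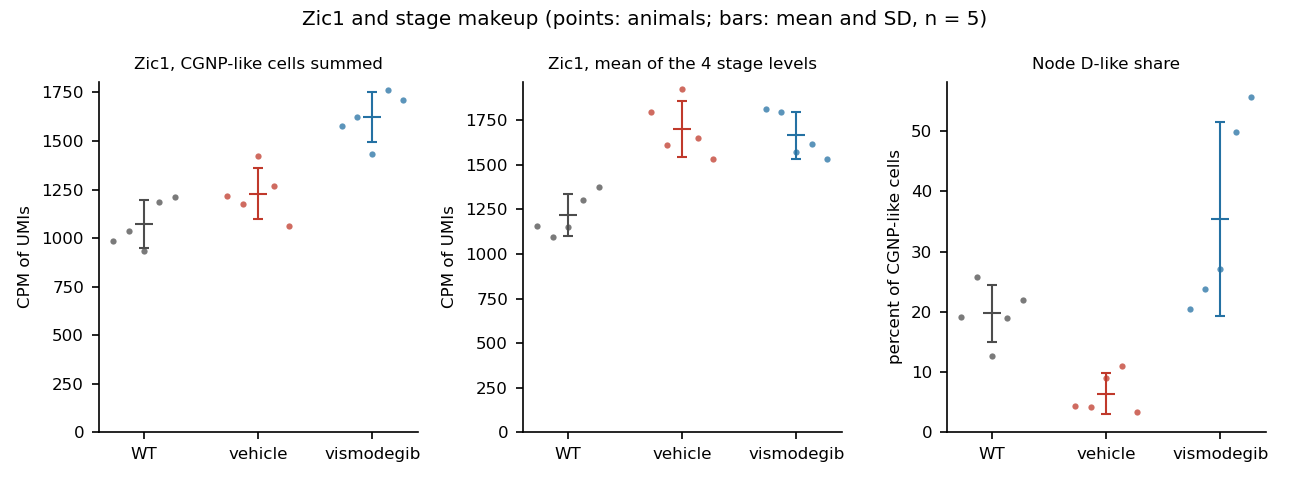
Zic1 in CPM with all CGNP-like cells of an animal summed (left), Zic1 in CPM as the mean of the 4 stage levels (middle), and the percent of CGNP-like cells that were Node D-like (right), by group (x axis), with points for animals and bars for the mean and SD of 5. Vismodegib tumors lie above all vehicle tumors in the left and right panels and among them in the middle panel.

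No member was called within a stage, and at each stage the ranges of the treatments overlapped for all 4 members, where they did not for 3.7%, 5.15%, 2.08% and 1.11% of all genes from the Node A-like to the Node D-like stage. The background there was low, with 2.4%, 3.2% and 0.546% of genes called at the Node A-like, Node B-like and Node C-like stage and 0.0% (0 of 6398) in Node D-like cells, where 310 genes had an unadjusted p under 0.05 and DESeq2 called 2. Zic5 in Node A-like cells was 123, 77.5, 197, 119 and 74.4 CPM in vehicle and 214, 227, 206, 150 and 128 CPM in vismodegib tumors, a difference of 0.64 (SE 0.25, adjusted p = 0.269), and without vehicle tumor 3 it was 0.91 (adjusted p = 0.0315). Zic4 in Node B-like cells was 357, 327, 304, 367 and 398 CPM in vehicle and 297, 317, 199, 256 and 287 CPM in vismodegib tumors, so 4 of 5 vismodegib tumors lay below all vehicle tumors (-0.36, SE 0.14, adjusted p = 0.222). Zic4 was lower on average in vismodegib tumors at each stage, by 0.18 to 0.36 on the log2 scale, and Zic5 higher at each stage, by 0.15 to 0.64, without a call. Over all cells of a tumor, which is nearest to what a bulk sample would show, Zic1 differed by 0.29 (SE 0.12, adjusted p = 0.142, with 13.9% of genes called). In such sums fewer cells of a type and less RNA per cell cannot be told apart.

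Whether vismodegib moved a gene differently by stage was tested on the log2(CPM + 10) difference between stages of the same tumor. For Zic5, Node D-like minus Node A-like cells gave 0.10 ± 0.08 in vehicle and -0.31 ± 0.26 in vismodegib tumors. The difference of -0.41 had the smallest p that 252 assignments allow (exact permutation test, 2-sided p = 0.0079), and adjusted over the 8 tests run it was 0.0635. The Node C-like minus Node A-like difference for Zic5 was -0.46 (exact permutation p = 0.0397, adjusted 0.159). Zic1, Zic2 and Zic4 gave differences of -0.29 to 0.00 (exact permutation test, adjusted p of 0.457 or more). No stage contrast passed after adjustment, but with 8 tests a single contrast at the smallest p adjusts to 0.0635, so it could not have passed alone.

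Zic5 calls depended on a covariate. The first principal component of the tumor profiles after removing group means carried 38.2% of the remaining variance in CGNP-like cells, 33.8% in Node A-like and 37.8% in Node B-like cells. In CGNP-like cells vehicle tumors 1 and 3 and vismodegib tumors 1 and 2 stood apart on it from the other tumors, and their Zic5 was 150 to 205 and 188 to 229 CPM, against 72.2 to 113 and 128 to 160 CPM in the others. With the component of each class as a covariate, edgeR called Zic5 higher in vismodegib tumors in CGNP-like (0.50, adjusted p = 0.044), Node A-like (0.67, adjusted p = 0.0237) and Node B-like cells (0.57, adjusted p = 0.0346). The covariate also raised the share of all genes called, to 22.2% from 13.1% in CGNP-like, to 5.15% from 2.4% in Node A-like and to 9.74% from 3.2% in Node B-like cells. What the component stands for was not tested.

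**Figure D5:**
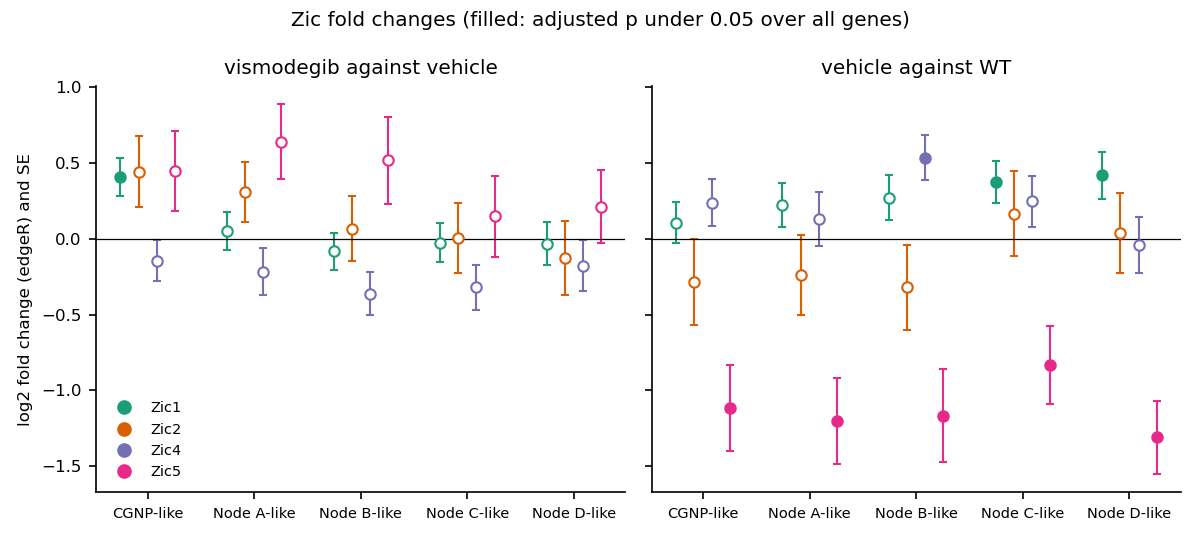
Log2 fold changes from edgeR with their SE (y axis) in all CGNP-like cells and in each stage (x axis), for vismodegib against vehicle tumors (left) and vehicle tumors against WT cerebella (right), with colors for the genes and filled points for an adjusted p under 0.05 over all genes. Zic1 in CGNP-like cells is the only filled point on the left, and on the right Zic5 is filled in all 5 classes, below 0.

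Vehicle tumors against WT cerebella compare tumor cells with the normal lineage they resemble. Zic5 was lower in tumors. In CGNP-like cells it was 172, 186, 235, 273 and 375 CPM in WT against 150, 74.7, 205, 113 and 72.2 CPM in vehicle samples, and 4 of 5 vehicle tumors lay below every WT cerebellum, with vehicle tumor 3 inside the WT range. Zic5 fell by 1.12 on the log2 scale (SE 0.28), with an edgeR adjusted p of 0.00454, and it was the only member called of 4, where 44.5% of 12584 genes were called. The ranges of the groups did not overlap for 31.5% of genes and for 0 of the 4 members. Outside the lineage, mean Zic5 was also lower in vehicle samples in astrocyte-like (164 ± 59 to 65 ± 32 CPM) and vascular fibroblast-like cells (169 ± 77 to 71 ± 83 CPM). Oligodendrocyte-like cells went from 21.0 ± 5.4 to 13.7 ± 10.7 CPM. Endothelial-like and microglia-like means were higher in vehicle samples, at 13 against 4.4 and 51 against 3.4 CPM, each from 13 UMIs or fewer. These classes got no test.

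The fall of Zic5 was called at each stage, by 1.199, 1.17, 0.83 and 1.31 on the log2 scale from the Node A-like to the Node D-like stage (edgeR adjusted p = 0.0027, 0.0063, 0.0187 and 0.000152), where 35.6%, 35.5%, 29.7% and 26.7% of genes were called. In Node D-like cells it was 260, 212, 330, 336 and 355 CPM in WT and 130, 82.8, 202, 142 and 78.5 CPM in vehicle samples, and the ranges did not overlap, as for 18.4% of genes. Leaving out each animal in turn kept all 10 calls in CGNP-like cells and at each stage but the Node C-like one, where 7 of 10 were kept and the call was lost without WT animal 4 or 5 or vehicle tumor 2 (adjusted p of 0.0511 to 0.0591). Weighting the stages equally gave -0.97 (exact permutation test, 2-sided p = 0.0238, adjusted over 4 genes 0.0476).

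Zic1 showed no call over the whole lineage between vehicle tumors and WT cerebella, at 987, 1039, 936, 1188 and 1214 CPM in WT and 0.11 (SE 0.13, adjusted p = 0.546) higher in vehicle samples. Within stages it was higher. In Node C-like cells it was 1407, 1254, 1332, 1612 and 1600 CPM in WT and 2112, 2166, 2200, 1978 and 1965 CPM in vehicle samples, an increase of 0.37 (SE 0.14, adjusted p = 0.0495). In Node D-like cells the increase was 0.42 (SE 0.16, adjusted p = 0.0487). Of all genes, 29.7% were called at the Node C-like and 26.7% at the Node D-like stage. The ranges of the groups did not overlap at the Node B-like and the 2 later stages, as for 26.4%, 22.5% and 18.4% of all genes there, but the calls lay at the threshold: of 10 fits that left out an animal, 0 kept the Node C-like call and 1, without vehicle tumor 5, the Node D-like call. In Node A-like cells, where the ranges did not overlap for 26.2% of genes, they overlapped for all 4 members. Node B-like cells differed by 0.27 (adjusted p = 0.168) and Node A-like cells by 0.22 (adjusted p = 0.245). Node D-like cells, where Zic1 is highest, were 19.7% ± 4.8 of the WT and 6.40% ± 3.4 of the vehicle lineage, and with equal weight of the stages the difference was 0.48 (1217 ± 118 against 1702 ± 156 CPM, exact permutation p = 0.0079, adjusted over 4 genes 0.0317).

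Zic4 was higher in vehicle tumors at 1 stage. In Node B-like cells it was 288, 234, 171, 191 and 199 CPM in WT and 357, 327, 304, 367 and 398 CPM in vehicle samples, without overlap (26.4% of genes), a rise of 0.53 (SE 0.15, adjusted p = 0.0102) that held in 10 of 10 fits that left out an animal. At that stage 35.5% of all genes were called. Over the lineage the difference was 0.24 (SE 0.16, adjusted p = 0.231), and at the other stages -0.04 to 0.25 without a call. Zic2 differed by -0.29 (SE 0.28, adjusted p = 0.429) over the lineage and by -0.32 to 0.16 within stages, also without a call. With equal weight of the stages its direction turned, to 0.08 (exact permutation test, adjusted p = 0.778). WT animal 5 was the highest of the WT cerebella for Zic2 and Zic5 in CGNP-like cells, at 150 and 375 CPM. The 2 comparisons share the vehicle tumors, so the opposite signs of Zic5 in them are not independent.

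Shares of cells with a UMI were compared after thinning each cell to 500 UMIs. Zic1 was found in 42.0% ± 3.1 of WT, 45.3% ± 3.4 of vehicle and 55.4% ± 3.3 of vismodegib CGNP-like cells. The vismodegib share was 10.1 percentage points higher than that of vehicle tumors (exact permutation test, 2-sided p = 0.0079, the smallest 252 assignments allow, adjusted over 4 genes 0.0317). All stages enter these shares, and the stage makeup differed between the treatments. The part of that makeup in the difference was not tested. With all UMIs of each cell the shares were 82.5% ± 6.6 and 88.3% ± 4.8, a difference of 5.75 points (exact permutation p = 0.167). Leaving out a tumor gave 8.94 to 11.31 points at 500 UMIs, and the adjusted p passed in 2 of 10 such sets, those without vehicle or vismodegib tumor 3, where 4 against 5 tumors allow 126 assignments. Microglia-like cells, which should lack Zic1, showed it in 12.3% ± 4.6 of vehicle and 7.08% ± 3.5 of vismodegib cells at 500 UMIs, and the median depth before thinning was 2107 and 2278 UMIs there against 1734 and 1764 in CGNP-like cells. Barhl1, a CGNP marker, was found in 22.2% ± 3.1 and 14.3% ± 2.1 of the CGNP-like and 5.97% ± 3.8 and 2.44% ± 1.2 of the microglia-like cells of the same groups.

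Zic5 was found in 11.7% ± 3.1 of WT, 5.86% ± 2.4 of vehicle and 7.73% ± 1.9 of vismodegib CGNP-like cells at 500 UMIs, a difference of -5.87 points between vehicle and WT (exact permutation p = 0.0159, adjusted over 4 genes 0.0635) that did not pass after adjustment. Zic4 was found in 13.1% ± 3.3, 15.6% ± 1.5 and 14.4% ± 2.0 of these cells and Zic2 in 4.55% ± 1.8, 3.90% ± 1.4 and 5.20% ± 1.0, without a difference that passed. In microglia-like cells each of these 3 genes was found in at most 2.89% on average in any group.

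By stage, the Zic1 share at 500 UMIs ran from 38.6% ± 2.6 of Node A-like to 74.7% ± 5.0 of Node D-like cells in vehicle tumors and from 40.2% ± 3.2 to 72.2% ± 2.8 in vismodegib tumors. WT cerebella went from 32.0% ± 3.9 to 59.7% ± 1.5. At equal depth the stages thus differed in the share of cells with a Zic1 UMI. Thinning to 500 UMIs relates the share to a cell's total UMIs, as CPM does, so it is no separate measure of the rise.

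Across 30 means of class and group, the gene whose pattern was most like that of each member, among 9817 genes compared on the log2(CPM + 10) scale, was another member. Zic1 and Zic4 had a Pearson correlation of 0.950, Zic4 and Zic5 0.872, Zic1 and Zic5 0.868, Zic1 and Zic2 0.858, Zic2 and Zic4 0.833, and Zic2 and Zic5 0.775. Besides members, the genes most like Zic1 were Rai2 (0.909), Epc2 (0.891) and Glce (0.868). Those most like Zic2 were Nrep (0.853), Phf20l1 (0.829) and Zfp148 (0.824), those most like Zic4 Tdp2 (0.870), Igsf3 (0.869) and Epc2 (0.842), and those most like Zic5 8430419K02Rik (0.841), Nfix (0.836), which encodes a nuclear factor I protein of maturing granule neurons, and Ddah2 (0.833). The points share libraries and free RNA, and the 4 lineage stages weigh heavily in them, so these are descriptions and carry no test.

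The SHH pathway and the relatives of the ZIC proteins give the setting. Of 14 SHH pathway genes tested in CGNP-like cells, 0 rose and 7 fell with vismodegib, where 13.1% of all genes were called, with a median of -0.74 against 0.00 for all genes. These and the gene list values below are of the summed lineage, whose stage makeup differed between the groups. Gli1, Ptch1, Sfrp1 and Ccnd1 were among the markers that named Node B-like cells. Those cells were 55.2% ± 8.4 of the lineage in vehicle and 29.3% ± 10.8 in vismodegib tumors. The part of the makeup in the list values was not tested. Hhip, which binds and sequesters SHH, fell by 2.69 from 37.9 ± 7.5 to 5.75 ± 1.3 CPM (adjusted p = 1.86e-05), and the SHH receptor Ptch1 fell by 1.42 (adjusted p = 0.00108). Gas1, Ccnd1, Mycn and Sfrp1 also fell, by 0.96 to 1.35. Gli1, a transcriptional target and effector of the pathway, was 74.2 ± 24.3 CPM in vehicle and 54.0 ± 29.5 CPM in vismodegib tumors, a difference of -0.47 (adjusted p = 0.399). Of the GLI and GLIS genes, which are the nearest relatives of the Zic genes, 0 of 4 tested were called, with a median of 0.03, against 13.1% of all genes. No Zic gene was called lower with vismodegib.

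Between vehicle tumors and WT cerebella, 10 of 14 SHH pathway genes rose and 1 fell, where 44.5% of all genes were called, with a median of 1.15 against 0.05 for all genes. Hhip was higher by 4.39 (adjusted p = 3.2e-07), Ptch1 by 1.54 (adjusted p = 0.000566) and Gli1 by 1.08 (adjusted p = 0.000716). Smo itself was 23.2 ± 4.8, 24.7 ± 6.1 and 22.5 ± 8.8 CPM in WT, vehicle and vismodegib samples. Of the GLI and GLIS genes, Gli1 and Glis2 (1.10, adjusted p = 0.0357) rose and Gli3 fell by 0.89 (adjusted p = 0.0297), while Gli2 was not called.

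Other transcription factors of the granule lineage moved in both directions with vismodegib, with 3 of 18 higher and 2 lower, where 13.1% of all genes were called, and a median of 0.17 against 0.00 for all genes. Neurod2 rose by 2.19 (47.7 ± 13.1 to 216 ± 58 CPM, adjusted p = 0.000173), Neurod1 by 1.17 (adjusted p = 0.0173) and Mef2a by 0.61 (adjusted p = 0.039), 3 factors of neuronal differentiation. Atoh1, which specifies the progenitors, fell by 1.203 (107 ± 34 to 45.9 ± 10.1 CPM, adjusted p = 0.00456), and Barhl1 by 0.64 (adjusted p = 0.0054). Of 16 granule neuron maturation genes, 13 rose and 0 fell, against the same 13.1% called in either direction, with a median of 1.74, led by Cntn1 (2.69), Calb2 (2.57) and Kcnd2 (2.57). The Zic1 difference of 0.41 was smaller than each of these rises. Between vehicle tumors and WT cerebella, 5 of 18 transcription factors rose and 4 fell (median 0.14), and of 13 maturation genes tested 0 rose and 6 fell (median -0.78), shares of called genes near the 44.5% of all genes.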

How the data were processed

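Drop-seq libraries of 5 WT cerebella, 5 vehicle and 5 vismodegib M-Smo tumors, 1 animal each, were analysed. The deposited values are raw UMI counts per gene and cell barcode, made by the authors with STAR 5.4b on mm10 with the transgene sequences, tools named in the submitters' processing notes with bcl2fastq 2.18 and Seurat 2.3.0, and left as they were before the authors' quality criteria. The paper's methods name another version of STAR. Tumor runs held a spike-in of cultured human cells, so their reads were first aligned to mouse and human genomes together. Barcodes of mouse origin were then aligned again, while WT reads were aligned to the mouse reference only. The gene annotation version is unknown here.

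Cells with at least 500 UMIs and 500 genes, and not above 5 SD over the animal's median for UMIs, genes or mitochondrial share, were kept. No doublet caller was run, and these upper limits were the only step against doublets. WT and tumor cells were clustered apart at a resolution of 0.8 with the Zic rows held out (Python 3.11.15, scikit-learn 1.9.0, numpy 2.4.6) and named from fixed markers, and blood vessel cells were clustered again. UMI counts were summed per animal and class, with at least 5 cells for a level and 10 for a fit. Depth was 2310474 to 17708677 UMIs per library, and few UMIs stand behind low genes in rare classes.

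Comparisons used edgeR 4.0.16 (R 4.3.3) with TMM, filterByExpr and the quasi-likelihood test, Benjamini-Hochberg adjusted over all genes at 0.05. Exact 2-sided permutation tests, for which 5 animals against 5 allow 252 assignments, were run on log2(CPM + 10) and on shares with code written for them. The code was tested on simulated data, the permutation test against that of scipy 1.17.1. Alternatives were DESeq2 1.42.0, other size factors, filters, thinning, clustering, covariates, a block and leaving out each animal. Equal stage weights and the inclusion of the unnamed cluster were chosen after seeing the data. Named genes were the members, for each member the 5 genes most like it, Gli1 and Ptch1, and for each gene list the 3 most changed called genes in a direction with vismodegib. Other list genes, and clusters described one by one, were named after their values were seen. The members and lists were chosen with earlier results of these data known. The remaining row of the family and some genes that the rule or the clusters would name are not reported here. P-values measure the spread between the animals.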

Additional observations from a re-analysis of the deposited data

Results flagged for a closer look

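Of 84 sets of 5 animals checked for a sample that stands apart, 1 held such a sample. Zic4 in Node D-like cells was 581.5 CPM in vismodegib tumor 1, while the other vismodegib tumors lay between 343.0 and 406.2 CPM. The gap to the nearest tumor was 0.735 of the whole range, above Dixon's 95% critical value for 5 samples. Chance flags about 5% of such sets.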

How the results depend on the processing

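The calls of lower Zic5 in vehicle tumors than in WT cerebella and of higher Zic4 in their Node B-like cells kept their direction under every alternative run. The Zic1 calls lay near the threshold. Zic1 in CGNP-like cells of vismodegib against vehicle tumors was 0.39 with RLE size factors (edgeR adjusted p = 0.0635), 0.34 without a filter on low counts (0.226), 0.40 with cells thinned to 500 UMIs (0.0795) and -0.03 with equal weight of the stages (exact permutation test, adjusted p = 0.794). Its vehicle against WT difference was 0.48 with equal weights in CGNP-like cells and 0.49 without a filter at the Node B-like stage (0.0212). For Node C-like cells it was 0.37 with RLE (0.0528), 0.39 thinned (0.0617) and 0.31 at resolution 1.2 (0.107), and in Node D-like cells 0.40 with RLE (0.0582), 0.40 without a filter (0.183), 0.37 with all 3 groups in the fit (0.0558) and 0.40 with cells up to 4 SD (0.0559). Zic4 over the lineage was 0.43 without a filter (0.0457). Zic5 in vismodegib against vehicle tumors was 0.50, 0.67 and 0.57 in CGNP-like, Node A-like and Node B-like cells with the first principal component as covariate. The difference in the Zic1 share was 5.75 points with all UMIs. The cause of these changes was not tested. Leaving out 1 animal gave 0.36 to 0.46 for Zic1 in CGNP-like cells of treated tumors, 0.31 to 0.42 and 0.34 to 0.48 for its Node C-like and Node D-like vehicle against WT differences, -1.02 to -0.66 for Zic5 in Node C-like cells, 0.51 to 0.91 for Zic5 in Node A-like cells of treated tumors and 8.94 to 11.31 points for the Zic1 share. Same-numbered vehicle and vismodegib tumors correlated in their deviations at -0.1463 to 0.3903 in CGNP-like cells (below 0.1 in 3 of 5), -0.247 to 0.4596 in Node B-like cells and -0.1222 to 0.4659 in all cells (below 0.1 in 2 of 5 each). Pairs 4 and 5 correlated and pairs 2 and 3 did not, so the numbers were not taken to pair samples. With a replicate block, Zic1 was 0.41 in CGNP-like cells of treated tumors, no longer called, and 0.38 (0.074) and 0.41 (0.0842) in Node C-like and Node D-like cells of vehicle against WT, and it changed no other call of a member. Over all settings, genes called in vismodegib against vehicle tumors numbered 1624 (1277 to 2761) in CGNP-like cells and 230 (32 to 494), 333 (120 to 1014), 46 (13 to 276) and 0 (0 to 40) at the stages in order, and in vehicle tumors against WT 5595 (2937 to 7687), then 3277 (824 to 5358), 3617 (1723 to 5887), 2364 (1053 to 3806) and 1373 (537 to 2027). Few UMIs limit Zic2, and Zic5 in Node D-like cells.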

Other observations

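Zic2 in endothelial-like cells exceeded the reference genes in each group. With the UMIs of a group's animals pooled, the level of Zic2 in these cells was 0.711 of that in CGNP-like cells in both WT cerebella and vehicle tumors and 0.481 in vismodegib tumors, above all 8 granule lineage reference genes, the highest of which stood at 0.144, 0.132 and 0.206. By means over animals the ratios were 0.812, 0.590 and 0.777, also above all 8 references, so the order of the groups depends on the weighting. These values rest on 9, 7 and 12 UMIs. With pooled UMIs, Zic1 (0.203) and Zic4 (0.208) also exceeded all 8 references in WT cerebella, and so did Zic5 in vismodegib (0.350, from 12 UMIs) and vehicle tumors (0.138, from 2 UMIs).

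The unnamed tumor cluster, led by Pitpnm3, Zfpm2 and Dpysl3, had a Zic1 level between those of Node C-like and Node D-like tumor cells. Counting it with the CGNP-like cells gave a Zic1 difference of 0.40 between vismodegib and vehicle tumors (edgeR adjusted p = 0.0492).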
